A study of Mus musculus with 26 samples.

Results

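The interferon response genes described here are 38 genes that cells switch on after type I interferon or viral RNA. They were taken as the array probes whose printed gene symbol equalled 1 of the 38 names. Of the 38 genes, 35 had a probe under that symbol (54 of the 25697 probes on the array), and 34 gave a signal above background on at least 3 of the 26 arrays. The 34 genes were read against all 10927 gene symbols that passed the same filter. Ifit1, which binds foreign RNA, had a probe that was detected on 0 arrays. Isg15, Cmpk2 and Xaf1 had no probe under those symbols and are treated separately.

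The cells came from the femoral marrow of male SCID mice (CB17/Icr-Prkdcscid) aged 6-8 weeks, a strain whose Prkdc mutation leaves almost no mature B and T cells. All mice carried engrafted human acute lymphoblastic leukemia, and the leukemia cells were gated out in the sort. Mice were restrained and given propranolol, which blocks beta-adrenergic receptors, were restrained only, or stayed in the home cage as controls. Each of 2 experiments held 3 arrays of restraint plus propranolol, 5 of restraint and 5 of control. No group received propranolol without restraint, and no group lacked leukemia. RNA was amplified and hybridised to Illumina MouseRef-8 v2.0 beadchips. The labels give replicate numbers but do not say that each array was a separate mouse, so p-values measure the spread between these samples, which may be technical.

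Type I interferons bind the receptor chains Ifnar1 and Ifnar2, and the kinases Jak1 and Tyk2 then activate a complex that holds Stat2 and Irf9 and binds interferon-stimulated response elements in DNA. The induced genes include sensors of viral RNA, enzymes that block translation or degrade RNA, and proteins of antigen presentation. Marrow leukocytes express many of these genes at a basal level, and plasmacytoid dendritic cells are a rich source of type I interferon.

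Promoter sequence was available from RefSeq (build GRCm38.p6, 250 bases before to 50 bases after each gene's start) for 30 of the 38 genes. The core of the response element (GAAA, any 2 bases, then GAAA again, on either strand) occurred in promoters of 14 of the 30 genes (46.7%), against 3.99% of all 27025 genes with a promoter and 3.44% of all 32851 promoters. The gamma-activated site, TTCNNNGAA, which reads alike on both strands, occurred in 10 of the 30 genes (33.3%), against 9.55% of all genes and 8.3% of all promoters. The motifs overlapped in 2 of the 38 promoters searched for these genes. A match is a description of the letters only. The sequences shown are those of genes that the results turn on and that hold a match. The 10 bases of each match are in capitals, read 5′ to 3′ on the gene's strand. Eif2ak2 was the gene that passed the test, Gbp2 and Stat2 stood near the front of a comparison, and Ifit3, Rsad2 and Oas3 belong to the effectors that varied together between arrays. They lie at chr17:78882535-78882564 (minus strand) for Eif2ak2, chr3:142620589-142620628 (plus) for Gbp2, chr10:128270261-128270300 (plus) for Stat2, chr19:34583358-34583431 (plus) for Ifit3, chr12:26456548-26456587 (minus) for Rsad2 and chr5:120777710-120777749 (minus) for Oas3.
Eif2ak2: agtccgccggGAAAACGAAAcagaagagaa
Gbp2: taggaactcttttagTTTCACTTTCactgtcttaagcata
Stat2: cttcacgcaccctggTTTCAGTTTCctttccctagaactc
Ifit3: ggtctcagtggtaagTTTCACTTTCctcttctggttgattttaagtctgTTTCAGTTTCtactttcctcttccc
Rsad2: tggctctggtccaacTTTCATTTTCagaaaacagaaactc
Oas3: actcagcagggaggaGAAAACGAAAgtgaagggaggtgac
The Eif2ak2 match began 18 bases after the start of transcription. Relative to the start, the matches of Gbp2, Rsad2 and Oas3 began at -59, -120 and -75, that of Stat2 at -222, and the first of the 2 matches of Ifit3 at -156. Adar, Irf1, Irf9 and Irf7 have a RefSeq promoter in which the core was not found. The core was also not found for Oasl1, Oasl2, Ifit2 and Isg20. These effectors lay above their group mean on control replicate 2 of experiment 1 (0.79, 1.31, 0.57 and 0.79), an array described below. Bst2 had 2 matches and lay below its mean there (-0.31). Irf1 and Ifi44, with no match, also lay below (-0.13 and -0.14). The 6 genes whose sequences are shown all lay above: Ifit3 1.45, Rsad2 0.99, Stat2 0.67, Oas3 0.63, Gbp2 0.4 and Eif2ak2 0.4. On that array 31 of the 34 genes lay above their mean. Whether the core goes with the shared variation was not tested.

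Arrays detected between 39.5% and 51.2% of probes (detection p under 0.05), with median raw signals of 124 to 156. Leukocyte markers (Ptprc, Spi1, Cd53, Laptm5) were kept in 4 of 4 cases, and their mean log2 intensity per array lay between 10.08 and 10.40 with restraint plus propranolol, 9.94 and 10.30 with restraint, and 9.58 and 10.12 in controls. Markers of red cell precursors differed by condition. All 8 erythroid markers were lower with restraint than in controls and 4 of them passed the test, which 2.24% of all genes passed. In restraint plus propranolol against control, again all 8 were lower and 1 passed, beside 3.78% of all genes. The mean log2 intensity of the 8 markers on an array had a median of 5.70 (range 4.53 to 8.27) with restraint plus propranolol, 5.90 (4.69 to 7.01) with restraint and 8.03 (5.43 to 9.06) in controls. The 6 B lineage markers had medians of 5.26 (5.14 to 5.89), 5.44 (4.95 to 5.70) and 6.45 (5.36 to 7.42) in that order of conditions. In bulk samples, fewer cells of a type and less RNA per cell cannot be told apart.

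The comparison of restraint plus propranolol with control held the 1 interferon response gene that passed a pooled test. Eif2ak2, which encodes PKR, the kinase that halts translation when it binds double-stranded RNA, was lower with restraint plus propranolol. The other 33 genes did not pass: 20 of the 34 were higher and 14 lower, and the median log2 change was 0.07, beside -0.02 over all genes tested. The test was limma's, on log2 intensity with experiment as a covariate and Benjamini-Hochberg adjustment over all kept probes, with an adjusted p under 0.05 as the threshold. It called 3.78% of all genes in this comparison (413 of 10927) and 1.92% of them as lower, so 1 of 34 is near the background. At an unadjusted p under 0.05 stood 4 of the 34 genes, and 18.9% of all genes. The 95% interval excluded both a doubling and a halving for 25 of the 34. Genes near background, such as Ifi35 and Mx1, can show little change on this scale, and the fit held no term for the slide. The count is therefore no sign that a gene was unchanged.

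Eif2ak2 had log2 intensities of 9.90, 9.91 and 9.84 with restraint plus propranolol in experiment 1, against 10.03, 10.27, 10.47, 10.06 and 10.30 with restraint and 10.61, 11.02, 10.53, 10.10 and 10.84 in controls. In experiment 2 the values were 10.28, 9.52 and 9.15 with restraint plus propranolol, 9.82, 9.74, 9.23, 10.52 and 10.10 with restraint, and 10.23, 9.85, 10.26, 10.86 and 10.09 in controls. In experiment 1 all 3 propranolol arrays lay below every restraint and control array. The share of all genes that separate like this within 1 experiment was not counted, so no weight is put on it. In experiment 2 the groups overlapped, with 1 propranolol array above 4 of the 5 control arrays. Eif2ak2 fell by 0.67 ± 0.18 on the log2 scale (standard error, limma, adjusted p = 0.0365, 6 against 10 arrays), with changes of -0.74 in experiment 1 and -0.61 in experiment 2. The change in experiment 2 leans on 2 arrays with few detected probes. Propranolol replicate 3 (9.15) had 39.5% of probes detected and an array weight of 0.147. Control replicate 4 (10.86) had 42.5% and a weight of 0.201. Of the 6 propranolol arrays, 5 lay below the control mean of their experiment. An exact two-sided permutation of the conditions within experiments gave p = 0.00542 over 3136 relabellings, for this gene alone and after it was picked. The relabelling did not take the slide into account. All 5 control arrays of experiment 1 were on slide 1 and all 3 of its propranolol arrays on slide 2. Condition and slide cannot be told apart there. Erythroid and B lineage markers were lower in the same comparison (median log2 changes -2.03 and -0.75), and their part in the Eif2ak2 difference was not tested. The call was lost with the slide as a term in the fit (-0.46, adjusted p = 0.661), with median scaling, with no filter on dim probes, and without any 1 of several arrays. Only 1 slide held arrays of both conditions from 1 experiment, and there the 1 propranolol array was 0.20 below the mean of 2 control arrays.

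**Figure D1:**
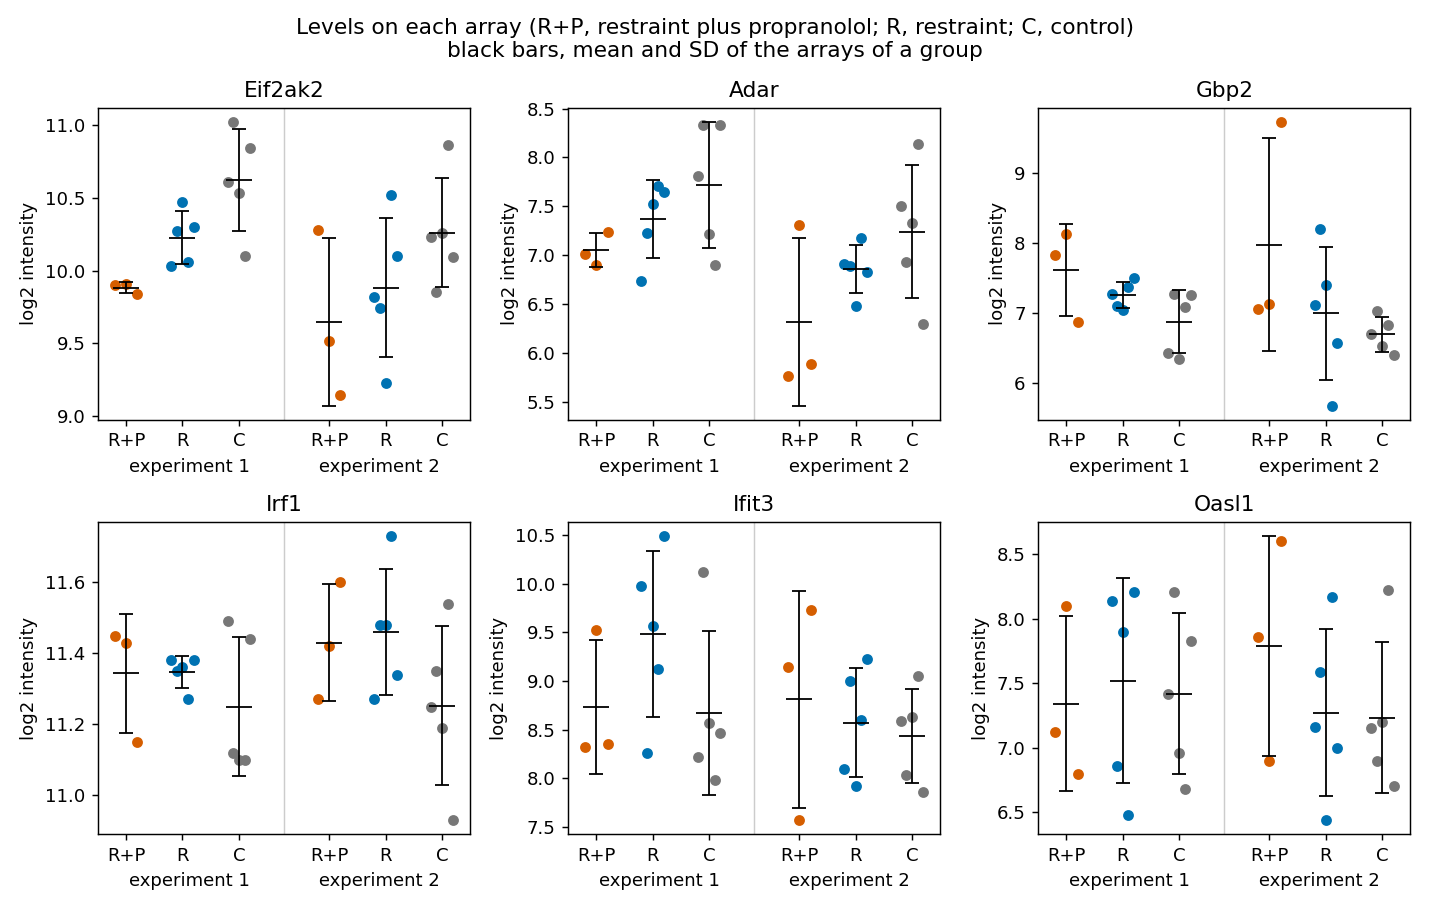
Log2 intensity (vertical axes, scaled separately for each gene) of 6 interferon response genes on each array, by condition and experiment, with points for arrays and bars for the mean and SD of each group. For Eif2ak2 the 3 arrays of restraint plus propranolol in experiment 1 lie between 9.84 and 9.91, below all other arrays of that experiment, while for Ifit3 and Oasl1 single arrays stand above the rest of their group.

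Adar and Gbp2 came next in order of p, in opposite directions, and neither passed. Adar, the enzyme that edits adenosine in double-stranded RNA, had a lowest, median and highest log2 intensity of 5.76, 6.95 and 7.31 with restraint plus propranolol, against 6.48, 7.05 and 7.71 with restraint and 6.30, 7.41 and 8.33 in controls. The propranolol arrays reached lowest, and all groups overlapped. The Adar difference between restraint plus propranolol and control was -0.80 ± 0.26 (limma, adjusted p = 0.0866), but 2 further Adar probes gave -0.51 ± 0.24 and 0.44 ± 0.39, so the probes disagreed in sign. Gbp2, a GTPase that attacks the vacuoles of intracellular pathogens, had 6.87, 7.48 and 9.73 with restraint plus propranolol, 5.67, 7.18 and 8.20 with restraint, and 6.34, 6.76 and 7.27 in controls. The array at 9.73 was replicate 3 of experiment 2, which had the lowest share of detected probes of all arrays (39.5%). All 6 propranolol arrays lay above the control mean of their experiment, and the Gbp2 difference was 1.01 ± 0.34 (limma, adjusted p = 0.0994). Without that propranolol array the difference was 0.59 (limma, adjusted p = 0.313). The 2 further Gbp2 probes gave 0.91 ± 0.31 and 0.38 ± 0.20.

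Gbp3, of the same GTPase family, had 8.03, 8.38 and 8.75 with restraint plus propranolol and 7.24, 8.19 and 8.36 in controls, a difference of 0.34 ± 0.16 (limma, adjusted p = 0.272). The groups overlapped. Irf9, the DNA-binding partner of Stat2, had 8.24, 8.62 and 8.95 with restraint plus propranolol and 8.35, 8.87 and 9.59 in controls. All 6 propranolol arrays lay below the control mean of their experiment, and the difference was -0.37 ± 0.20 (limma, adjusted p = 0.337). Ifi35 had the third smallest p among the genes with a positive difference, at 0.19 ± 0.10 (limma, adjusted p = 0.322), but its probe was detected on 2 of 6 propranolol arrays and 0 of 10 control arrays.

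With restraint against control, limma called 0 of the 34, with 2 at an unadjusted p under 0.05, while it called 2.24% of all genes (245 of 10927) and 14.8% stood at an unadjusted p under 0.05. Of the 34 genes, 23 were higher and 11 lower, the median log2 change was 0.08 (0.00 over all genes), and single genes ranged from -0.69 for Usp18 to 0.48 for Ifit3. The 95% interval excluded both a doubling and a halving for 32 of the 34 genes, with the same limits. Usp18, the protease that removes Isg15 from proteins and damps receptor signalling, had 2 probes that gave -0.69 ± 0.43 and 0.15 ± 0.28.

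Eif2ak2 had the smallest p here as well. Its log2 intensity was 9.23, 10.08 and 10.52 (lowest, median, highest) with restraint and 9.85, 10.39 and 11.02 in controls, with 9 of 10 restraint arrays below the control mean of their experiment. The difference was -0.38 ± 0.16 (limma, adjusted p = 0.249), with -0.39 in experiment 1 and -0.37 in experiment 2. The exact two-sided permutation gave p = 0.0254 over 63504 relabellings. It too was run for this gene alone, after it was picked, and did not take the slide into account. The comparisons share their arrays, so the direction here and against restraint plus propranolol is not independent. Oas1a, a synthetase that activates the nuclease RNase L, had 4.37, 4.81 and 5.56 with restraint and 4.59, 5.18 and 6.89 in controls, and was detected on 4 of 10 restraint and 7 of 10 control arrays. Its difference was -0.50 ± 0.24 (limma, adjusted p = 0.337). Irf9 had 7.41, 8.84 and 9.16 with restraint and 8.35, 8.87 and 9.59 in controls, a difference of -0.29 ± 0.17 (limma, adjusted p = 0.499), and its second probe gave 0.01 ± 0.30.

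Among genes with higher means under restraint, Tap1, a subunit of the transporter that loads peptides for MHC class I, had 5.68, 6.59 and 7.12 with restraint and 4.64, 6.20 and 6.56 in controls. The groups overlapped, and the difference was 0.45 ± 0.23 (limma, adjusted p = 0.385). Gbp3 had 7.79, 8.41 and 8.66 with restraint and 7.24, 8.19 and 8.36 in controls, a difference of 0.25 ± 0.14 (limma, adjusted p = 0.470). Irf1, a transcription factor of both interferon types, had 11.27, 11.37 and 11.73 with restraint and 10.93, 11.22 and 11.54 in controls. All 10 restraint arrays lay above the control mean of their experiment, yet the difference was small, 0.15 ± 0.09 (limma, adjusted p = 0.487). The 4 further Irf1 probes gave differences between 0.32 and 0.66, all with an adjusted p of 0.254 or more. On the normalized values that the authors deposited, the same model gave Irf1 a difference of 0.19 (limma, adjusted p = 0.0466).

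**Figure D2:**
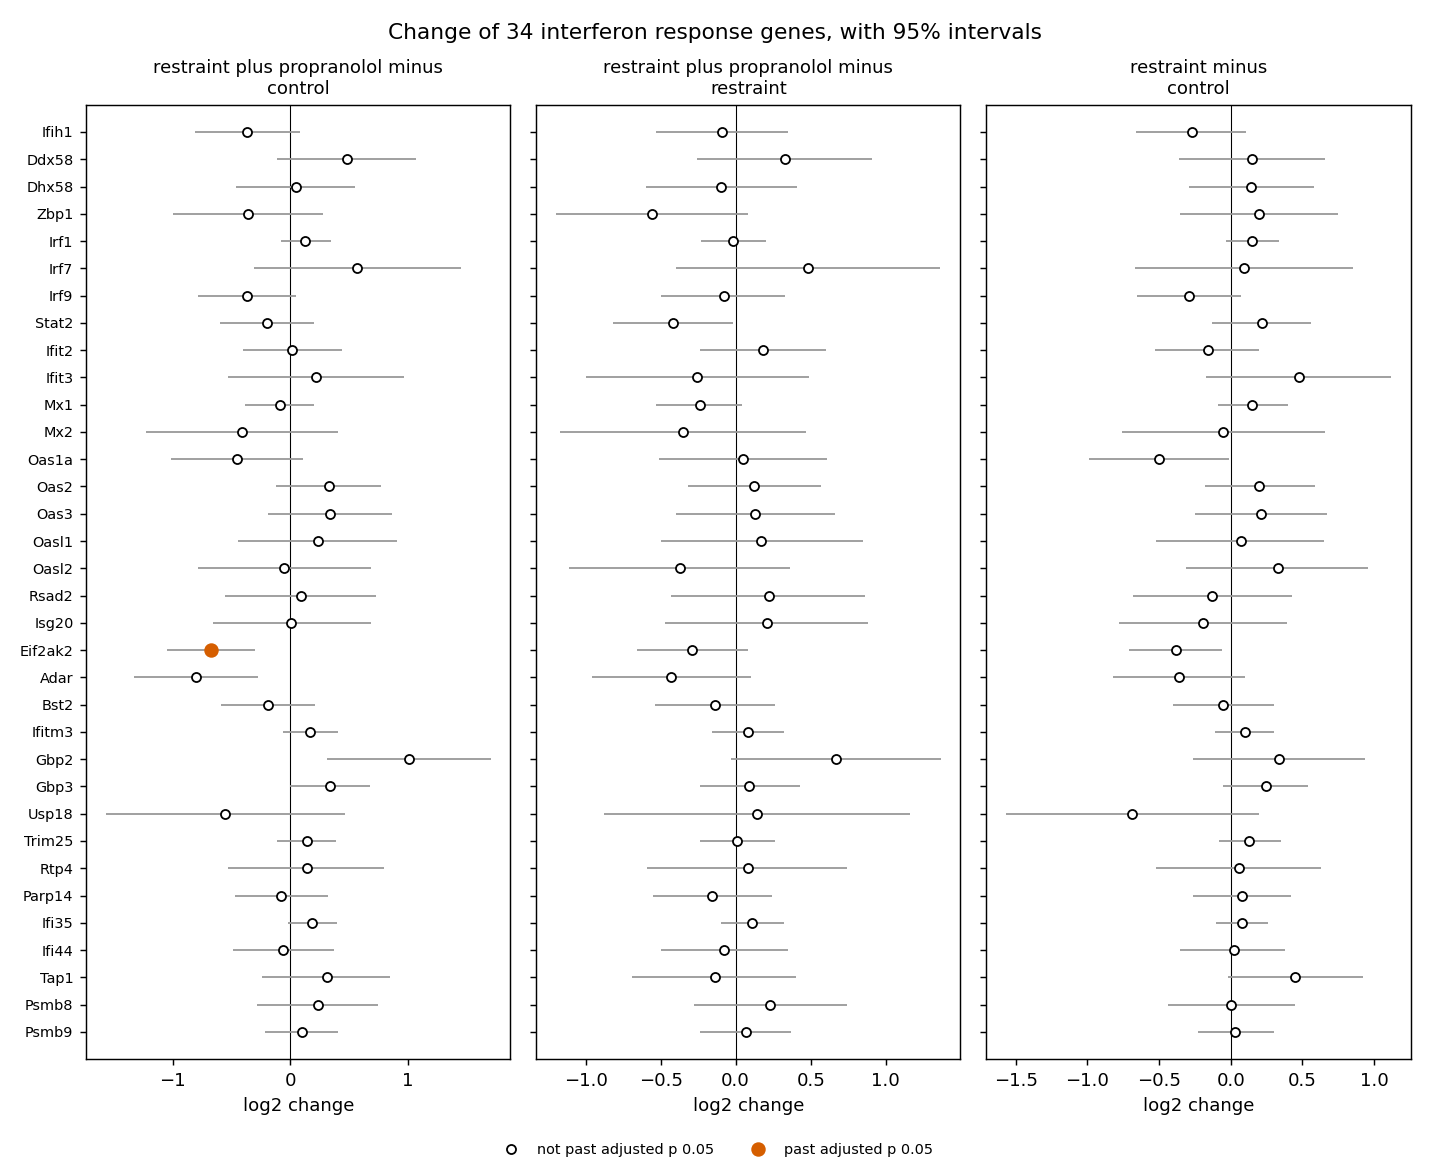
Log2 change (horizontal axes) of the 34 interferon response genes in each comparison, ordered by role, with 95% intervals; the filled point passed the adjusted threshold. Eif2ak2 at -0.67 in restraint plus propranolol minus control is the 1 filled point, and the other points scatter on both sides of 0.

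Adding propranolol to restraint called 0 of the 34 genes by limma, with 1 at an unadjusted p under 0.05, and 0% of all genes (0 of 10927, with 6.16% at an unadjusted p under 0.05). The 34 genes split into 18 higher and 16 lower, with a median of 0.03 (-0.01 over all genes) and a range from -0.56 for Zbp1 to 0.67 for Gbp2. The 95% interval excluded a doubling and a halving for 27 of the 34, again with those limits. Stat2, a subunit of the type I transcription complex, had 6.72, 7.06 and 7.68 with restraint plus propranolol and 7.20, 7.59 and 8.08 with restraint. With propranolol, 5 of 6 arrays lay below the restraint mean of their experiment, and the difference was -0.42 ± 0.19 (limma, adjusted p = 0.792). Zbp1, a sensor of Z-form nucleic acid, had 8.05, 8.32 and 9.05 with restraint plus propranolol and 8.09, 9.16 and 9.53 with restraint. All 6 propranolol arrays lay below the restraint mean of their experiment. The difference was -0.56 ± 0.31 (limma, adjusted p = 0.813), while a second Zbp1 probe gave 0.38 ± 0.36.

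Ddx58, which encodes the RNA sensor RIG-I, had 6.83, 7.62 and 8.36 with restraint plus propranolol and 5.70, 7.46 and 8.06 with restraint, a difference of 0.33 ± 0.29 (limma, adjusted p = 0.892). Gbp2 differed by 0.67 ± 0.34 (limma, adjusted p = 0.800), and by 0.25 without propranolol replicate 3 of experiment 2. Irf7, the factor that amplifies interferon production, had values of 4.68, 5.97 and 5.70 with restraint plus propranolol and 6.45, 4.82, 5.78, 5.49 and 6.67 with restraint in experiment 1. In experiment 2 the Irf7 values were 5.36, 4.91 and 8.59 with restraint plus propranolol and 4.73, 5.29, 4.94, 4.58 and 5.11 with restraint. The array at 8.59 is the same replicate 3 that was high for Gbp2, and without it the Irf7 difference of 0.48 ± 0.43 (limma, adjusted p = 0.894) became -0.11. Mx1, an antiviral GTPase, was detected on 0 of 6 propranolol arrays and 2 of 10 restraint arrays, with a difference of -0.24 ± 0.14 (limma, adjusted p = 0.813).

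No interferon response gene passed within a single experiment, and none passed a test of the difference between experiments. In restraint against control limma called 0.339% of all genes in experiment 1 and 0.0183% in experiment 2. In restraint plus propranolol against control it called 0.613% and 0.924%, and in restraint plus propranolol against restraint 0% and 0%. It called 0% of all genes in the tests of the difference between experiments. The sign of the rounded change matched between experiments for 25 of the 34 genes in restraint against control. It matched for 20 in restraint plus propranolol against restraint and 25 in restraint plus propranolol against control. A change that rounded to 0 was counted as no match, as for Ddx58, Isg20 and Psmb9 in restraint against control. In none of the 3 pooled comparisons did the arrays of the groups separate fully for any of the 34 genes. Over all genes the share that separated was also small, at 1.04% in restraint plus propranolol against control, 0.0275% in restraint plus propranolol against restraint and 0.0824% in restraint against control. Means of the control arrays were lower in experiment 2 than in experiment 1 for 31 of the 34 genes, with a median of -0.14 (-0.02 over all genes). Limma called 0 of the 34, with 0 at an unadjusted p under 0.05. Over all genes it called 0.0183%, with 3.44% at an unadjusted p under 0.05. The mean log2 intensity of the 34 genes was 8.55 on control replicate 2 of experiment 1. It was 7.66 to 7.95 on the other controls of that experiment and 7.62 to 8.05 on those of experiment 2.

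Of the 6 genes chosen by their level in each role, Eif2ak2, Zbp1 and Irf1 are described with their comparisons, and the other 3 follow. Ifitm3, which blocks viral fusion at endosomes, averaged 11.38 ± 0.17 with restraint plus propranolol (SD, n = 6), 11.30 ± 0.19 with restraint (SD, n = 10) and 11.20 ± 0.22 in controls (SD, n = 10). Psmb9, an immunoproteasome subunit, averaged 9.79 ± 0.29, 9.73 ± 0.23 and 9.69 ± 0.32 in the same order of conditions. Ifi44 averaged 9.73 ± 0.38, 9.80 ± 0.26 and 9.79 ± 0.51, again in that order. Ifitm3, Psmb9 and Ifi44 passed in none of the pooled comparisons, and their groups overlapped.

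By role, the 4 sensors had a median log2 change of 0.15 with restraint against control and the 4 transcription factors 0.12, beside 0.00 over all genes. The 13 kept effectors against viral RNA and replication had a median of -0.05, with 6 higher and 7 lower. Membrane and vacuole effectors (4 genes) had a median of 0.17, the 6 kept genes of the ubiquitin-like system and other induced genes 0.07, and the 3 antigen processing genes 0.03. No role group had a member that passed in this comparison.

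Between arrays of the same group, the interferon response genes had a larger median spread than all genes, and many lay high or low together on single arrays. The median within-group SD over the 34 genes was 0.49 log2 units, beside 0.38 over all genes. It ranged from 0.16 for Ifi35 and 0.17 for Irf1 to 0.85 for Irf7 and Mx2 and 0.94 for Usp18. On replicate 5 of restraint in experiment 1, 33 of the 34 genes lay above the mean of their group, and on replicate 2 of control in the same experiment 31 did. Replicate 2 of restraint in experiment 2 also had 31 of the 34 above its group mean. Over all genes, the share above the group mean on these 3 arrays was 48.3%, 49.0% and 50.5%. The arrays were singled out after their values were seen, and no p is attached to them.

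Ifit3, an effector that works with Ifit1 against foreign RNA, shows the pattern and was picked for it after its values were seen. Its log2 intensities with restraint in experiment 1 were 9.98, 8.26, 9.57, 9.12 and 10.49, and in controls 8.22, 10.12, 8.57, 7.98 and 8.47. The restraint array at 10.49 and the control array at 10.12 are replicates 5 and 2. Oasl2, a ubiquitin-like relative of the Oas synthetases, had 9.66, 8.85, 9.86, 9.08 and 10.15 with restraint and 8.67, 10.20, 8.67, 7.60 and 9.33 in controls, and was highest on the same 2 arrays. Oas2, another synthetase, had 9.27, 8.38, 9.17, 8.86 and 9.70 with restraint and 8.72, 9.53, 8.97, 8.12 and 8.43 in controls, with its highest values once more on these arrays.

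On control replicate 2 of experiment 1, all 13 kept effectors against viral RNA and replication lay above the group mean, by 0.79 on average, and so did all 4 sensors, by 0.71. The largest excesses were 1.45 for Ifit3, 1.31 for Irf7 and Oasl2, 1.15 for Rtp4 and 1.14 for Usp18. Irf1 (-0.13), Ifi44 (-0.14) and Bst2 (-0.31), which tethers virions to the cell surface, lay below the mean there. On restraint replicate 5 of experiment 1 the 13 effectors lay above the mean by 0.55 on average, and Trim25, the ligase that activates RIG-I, was the 1 of 34 genes below it (-0.05). The fewest genes above the mean, 7 of the 34, were seen on propranolol replicate 3 and on restraint replicate 2 of experiment 1.

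A second list was high on these arrays and on others. Of 38 kept interferon-induced genes outside the 34, 34 lay above the group mean on restraint replicate 5, 33 on control replicate 2 and 31 on restraint replicate 2 of experiment 2, against 5 on restraint replicate 2 of experiment 1. Propranolol replicate 2 of experiment 1 also had 31 of the 38 above its group mean, and 26 of the 34 interferon response genes, in a group of 3 arrays. Erythroid markers on control replicate 2 were 1.12 above and plasmacytoid dendritic cell markers 0.09 below their group mean, while on restraint replicate 5 of experiment 1 the erythroid excess was 0.10 and that of NK cell markers 0.45. Control replicate 4 of experiment 1 had an erythroid excess of 1.14, with 11 of the 34 genes above their mean. Restraint replicate 1 of experiment 1 had an NK cell excess of 0.44, with 22 of the 34 above. On restraint replicate 2 of experiment 2, erythroid markers stood at -0.08 and NK cell markers at 0.08 from their group means. The part of these marker shifts in the pattern was not tested. Leaving out control replicate 2 and restraint replicate 5 of experiment 1 together (chosen after seeing the data) left 0 of 34 genes called in every comparison. The Eif2ak2 difference between restraint plus propranolol and control was then -0.63 (limma, adjusted p = 0.0821).

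**Figure D3:**
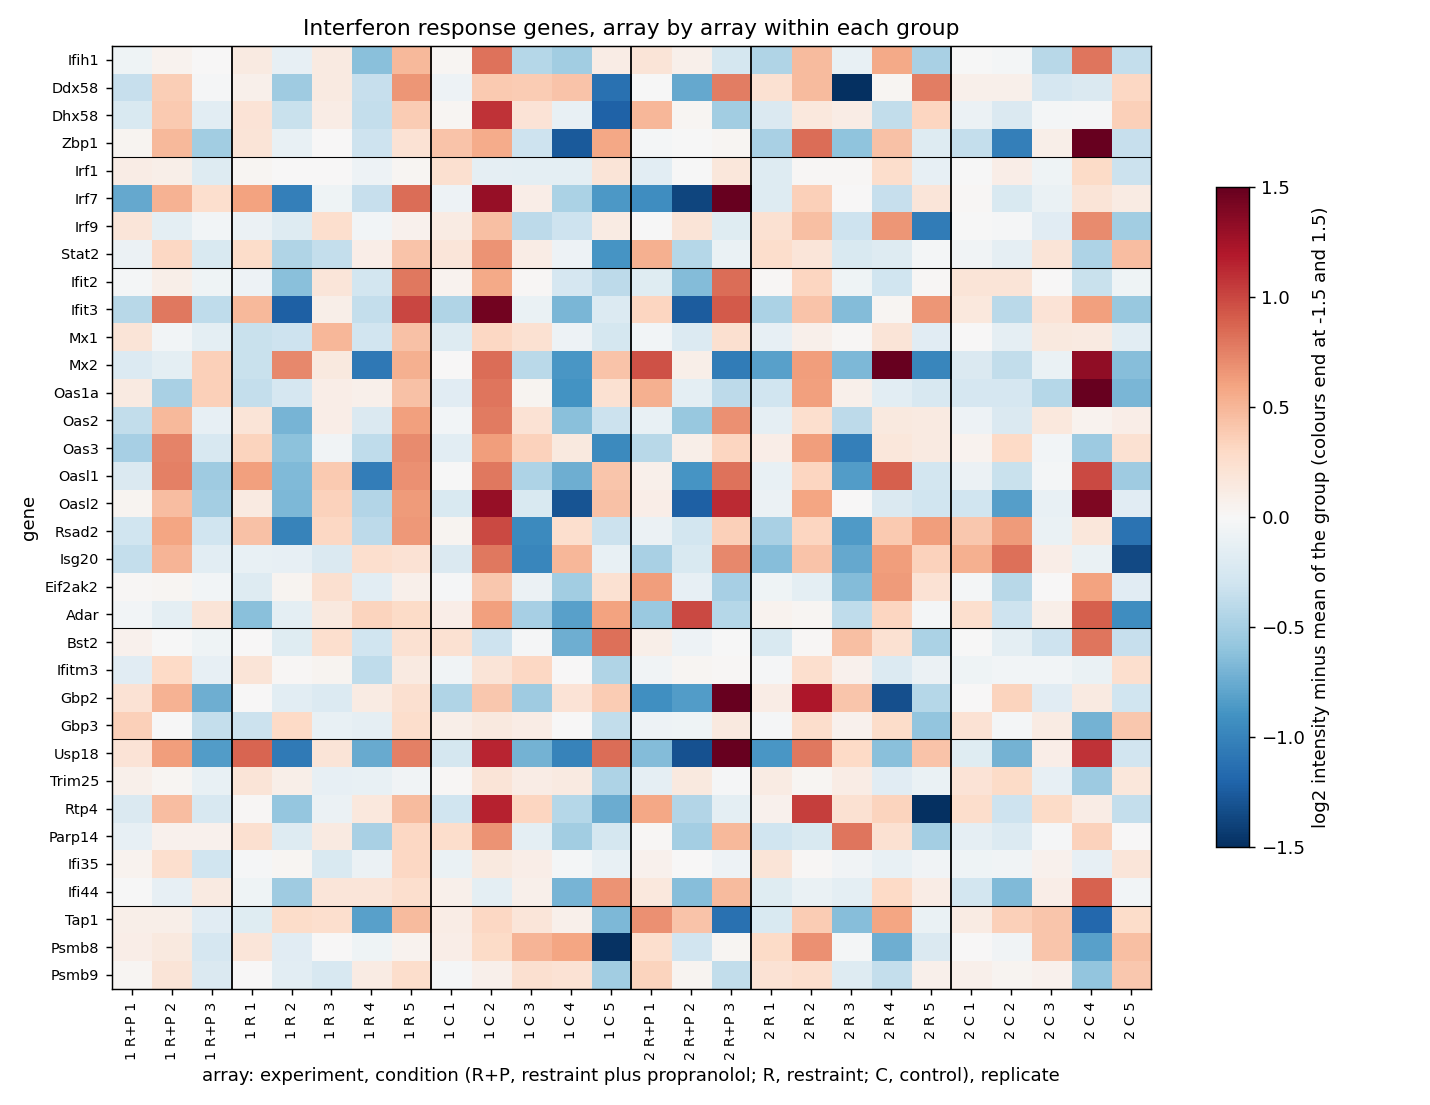
Log2 intensity minus the mean of its group (colour; red above, blue below, ends at -1.5 and 1.5) for 34 interferon response genes (rows, ordered by role) on 26 arrays (columns, by experiment, condition and replicate). Red columns stand at restraint replicate 5 and control replicate 2 of experiment 1, where 33 and 31 of the genes are above their group mean.

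**Figure D4:**
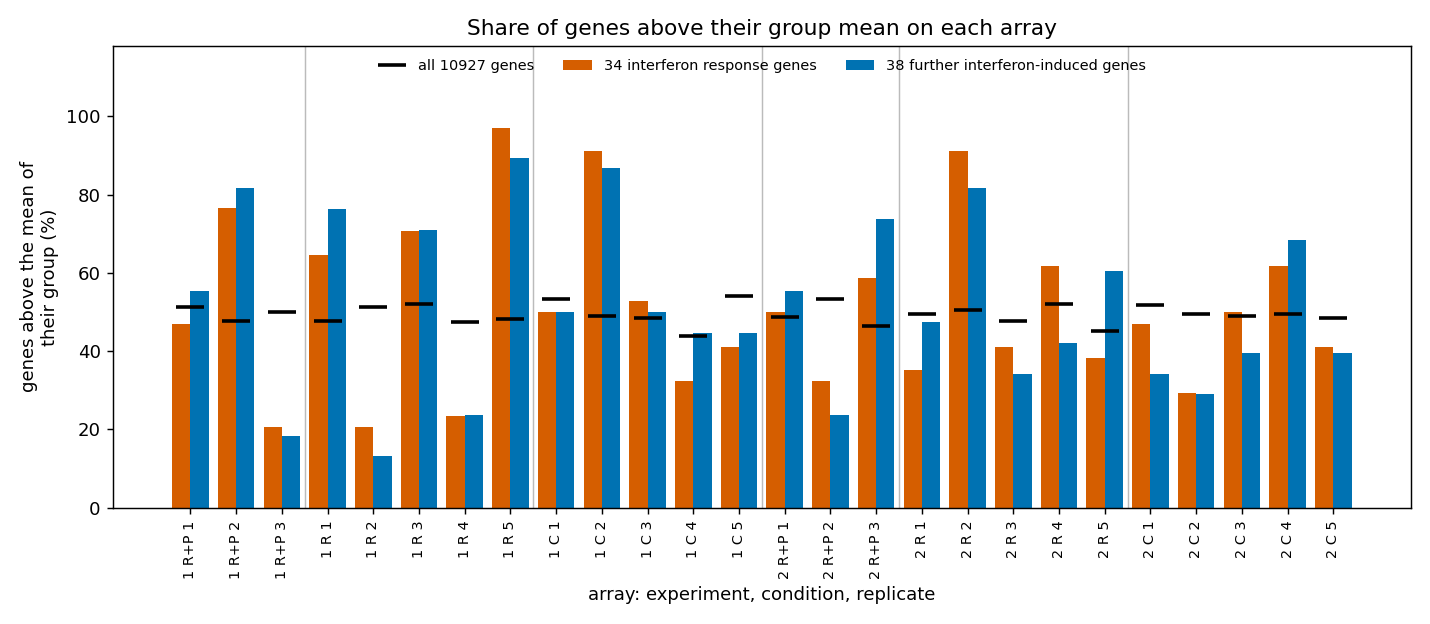
Share of genes above their group mean (vertical axis, percent) on each array, where R+P is restraint plus propranolol, R restraint and C control. Bars show the 34 interferon response genes and 38 further interferon-induced genes, and black marks all 10927 genes, which stay near the middle on every array.

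Most interferon ligands were not detected often enough to be tested. Of 19 interferon ligands, 17 had a probe and 3 passed the filter, with Ifna1 detected on 10 of the 26 arrays, Ifna6 on 5 and Ifng on 23, while Ifnb1 was detected on 2. Limma called 0 of the 3 in each pooled comparison, with 0 at an unadjusted p under 0.05. It also called 0 of 11 kept genes of the induction pathway, with 2 at an unadjusted p under 0.05 in restraint plus propranolol against control, 1 in restraint plus propranolol against restraint and 3 in restraint against control. Of the 38 further interferon-induced genes limma called 0 as well, with 8, 3 and 4 at an unadjusted p under 0.05 in the same order of comparisons (21.1%, 7.89% and 10.5% of them, beside 18.9%, 6.16% and 14.8% of all genes).

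Of the receptor and signalling genes, limma called 2 as higher in restraint plus propranolol against control, where it called 3.78% of all genes in either direction. It called 0 in restraint plus propranolol against restraint, where 0 stood at an unadjusted p under 0.05. Ifngr1, a chain of the interferon gamma receptor, was higher by 0.53 ± 0.13 (limma, adjusted p = 0.0200), with 9.89, 10.17 and 10.56 (lowest, median, highest) in restraint plus propranolol against 9.31, 9.67 and 9.99 in controls. Socs3, a feedback inhibitor of cytokine signalling, was higher by 0.79 ± 0.22 (limma, adjusted p = 0.0496), with 9.35, 9.76 and 10.06 in restraint plus propranolol against 7.66, 8.95 and 10.15 in controls. Restraint without propranolol also had higher means than control, by 0.41 ± 0.11 for Ifngr1 (limma, adjusted p = 0.0528) and 0.58 ± 0.19 for Socs3 (limma, adjusted p = 0.132). Restraint plus propranolol differed from restraint by 0.12 ± 0.13 and 0.2 ± 0.22, so neither gene's difference from control is particular to propranolol. With the slide as a term both calls were lost (0.46, adjusted p = 0.545, and 0.61, adjusted p = 0.662).

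The 3 genes with no probe under their own symbols were read through probes listed under other names. The probe that the array lists as LOC100038882 belongs to Isg15, the ubiquitin-like modifier, by gene identifier, and gave 0.95 ± 0.42 for restraint plus propranolol against control (limma, adjusted p = 0.224) and 0.28 ± 0.36 for restraint against control (limma, adjusted p = 0.794). The probe listed as Tyki, a synonym of the mitochondrial kinase Cmpk2, gave -0.61 ± 0.22 (limma, adjusted p = 0.121) and -0.47 ± 0.19 (limma, adjusted p = 0.236) in these comparisons. The probe listed as Fbxo39, which the gene identifier assigns to Xaf1, gave 0.06 ± 0.15 and 0.26 ± 0.13 (limma, adjusted p = 0.887 and 0.408). Its printed symbol and its gene identifier name different genes, and which transcript it measures was not tested. None of the 3 passed.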

How the data were processed

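Sorted marrow leukocytes were profiled on 26 arrays in 6 groups, and 6 further arrays with no group in the labels were not used. Raw signal intensity and a detection p-value per probe came from GenomeStudio, per the submitters' processing notes, and were deposited by the authors without normalization (lowest raw signal 96). Normalized intensities that the authors deposited served only as an alternative, after log2. Intensities were corrected, quantile normalized and put on a log2 scale with limma 3.58.1 (neqc, offset 16) in R 4.3.3. A probe was used if it was detected (p under 0.05) on 3 or more arrays (15061 of 25697), and the brightest kept probe stood for a gene; 13 of the 34 genes had several. Restraint plus propranolol, restraint and control were compared in 1 limma model with experiment as a covariate, and in a model of 6 group means for contrasts within and between experiments. Named genes were those called, the 3 of smallest p in each direction of each comparison, and the brightest of each role group; others are said to have been chosen later. The members and lists were chosen with earlier results of these data known. The pipeline was tested on simulated data. Sequences came from RefSeq promoters (GRCm38.p6), and pandas 2.3.3 and matplotlib 3.10.9 were used. The number of arrays limits the precision. Slides, scaling, filters, array weights, the replicate number as a block and single arrays left out were tried as alternatives. A pathway result is not reported here.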

Additional observations from a re-analysis of the deposited data

Results flagged for a closer look

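Of 68 groups of arrays tested over the 17 named genes, 5 held a value far from the rest of its group, and chance gives such a value in about 1 in 20 groups. Only restraint and control groups were tested. The groups of restraint plus propranolol, with 3 arrays each, were too small for this rule. Tap1 was low on control replicate 5 of experiment 1 (5.58, nearest array 6.33) and on control replicate 4 of experiment 2 (4.64, nearest 5.93). Gbp3 was low on control replicate 5 of experiment 1 (7.85, nearest 8.22). Oas1a was high on control replicate 4 of experiment 2 (6.89, nearest 5.03), an array with 42.5% of probes detected. Ifitm3 was high on control replicate 5 of experiment 2 (11.44, nearest 11.15).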

How the results depend on the processing

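In restraint minus control, 0 of the 34 genes passed under every alternative and every array left out (0 to 0), except on the normalized values that the authors deposited (1, Irf1). In restraint plus propranolol minus restraint the count was 0 under all of them. In restraint plus propranolol minus control it was 1, against 0 with median scaling, no filter on dim probes, the slide as a fixed term or the 2 arrays left out together, 2 with array weights (Eif2ak2 and Gbp2), and 0 to 2 with each array left out. The adjusted p of Eif2ak2 there ranged from 0.00312 to 0.661. It exceeded the threshold without each of 11 single arrays: control replicates 1, 2 and 5 and propranolol replicates 1, 2 and 3 of experiment 1, and control replicates 1, 3 and 4 and propranolol replicates 2 and 3 of experiment 2. Irf7 in restraint plus propranolol minus restraint turned to -0.36 with array weights, -0.24 with the slide as a fixed term and, with each array left out, ranged from -0.11 (without propranolol replicate 3 of experiment 2) to 0.75. Adar passed in restraint plus propranolol minus control without control replicate 4 of experiment 1, control replicate 5 of experiment 2 or propranolol replicate 2 of experiment 2 (adjusted p = 0.0487, 0.0421 and 0.0272). Over 21 gene comparisons, 722 of 775 settings kept direction and side of the threshold. Genes called overall ranged from 81 to 718, 0 to 7 and 25 to 933 in the 3 comparisons (245, 0 and 413 as reported). The number of interferon response genes that were higher also moved with the setting, from 18 to 25, 9 to 19 and 13 to 22 in that order. The filters changed how many were tested as well. The same-numbered arrays did not vary together (22 pairs, r from -0.26 to 0.33, 4 over 0.1), and the replicate block left 0, 0 and 1 genes called. Socs3 lost its call without most single arrays (adjusted p up to 0.112 there), and Ifngr1 with the replicate block (adjusted p = 0.0525). Signal over background limits Mx1, Ifi35, Oas1a and Irf7 most. The causes of these shifts were not tested.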
